A study of Mus musculus with 11 samples.

Results

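The regions described here are places away from gene starts where PU.1 was found on DNA of stimulated mouse B cells on both days of the study and where no IRF4 peak was called. They were chosen by measured values of these libraries. A row of the PU.1 day 1 list was taken when a peak position of the PU.1 day 3 list lay less than 200 bp away, when no peak position of any of the 6 IRF4 libraries lay less than 200 bp away, and when it lay more than 1 kb from every annotated start of a protein-coding transcript (mm9). In all, 8521 of 21966 rows met this rule, or 38.8% (95% Wilson interval 38.1 to 39.4), and they are called IRF4-free regions below. Their PU.1 enrichment, their presence on both days and their lack of an IRF4 peak are therefore descriptions and carry no test, whereas the DNA sequence under the peaks was not used to choose them.

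The cells were splenic B cells of B1-8i mice on the 129 background, whose B cells carry a targeted antibody gene against the hapten NP. All of them received NP-Ficoll at 0.01 ng/mL with CD40L, IL-2, IL-4 and IL-5, so no group was left unstimulated. Day 3 cells gave 2 PU.1 libraries and 3 IRF4 libraries, and day 1 cells, taken after activation and before differentiation into plasma cells, gave the same numbers. Chromatin immunoprecipitation with an antibody and sequencing of the recovered DNA yielded lists of peaks, each with the authors' fold enrichment over input DNA. The labels do not say whether replicates came from separate mice or cultures, and 2 libraries carry a pair of numbers in their titles, so the spread between libraries may be technical.

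PU.1 is an Ets-family transcription factor that B cells and myeloid cells need for their development and that binds DNA around a GGAA core, often in enhancers. IRF4 drives activated B cells towards plasma cells. It binds poorly alone at many places and is recruited by PU.1 to a composite element, the Ets-IRF composite element (EICE), in which a GGAA core and a GAAA word for the IRF partner stand side by side.

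To show what the DNA of the IRF4-free regions looks like, 100 bp of mm9 reference sequence follow for the 3 regions placed highest in both PU.1 lists that hold a PU.1 site. The capitals mark the PU.1 site GAGGAAGT. The first lies at chr13:24726413-24726512 (minus strand) in an intron of Fam65b, which encodes an inhibitor of the GTPase RhoA, the second at chr9:72439981-72440080 (plus strand) in an intron of Rfx7, a transcription factor of the RFX family, and the third at chr11:75346633-75346732 (plus strand) in an intron of Slc43a2, an amino acid transporter.
Fam65b region: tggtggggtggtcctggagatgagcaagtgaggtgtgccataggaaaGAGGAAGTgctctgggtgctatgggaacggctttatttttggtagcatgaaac
Rfx7 region: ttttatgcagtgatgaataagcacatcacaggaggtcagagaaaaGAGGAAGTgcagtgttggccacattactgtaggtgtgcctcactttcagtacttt
Slc43a2 region: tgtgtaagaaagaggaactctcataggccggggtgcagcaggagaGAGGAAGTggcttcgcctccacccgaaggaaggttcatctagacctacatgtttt

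The next 2 are among the 3 highest-placed IRF4-free regions that hold an EICE, spelled GGAANNGAAA and marked by the capitals, and they are shown because no IRF4 library had a peak at this element. They are intergenic and lie at chr4:54866101-54866200 (minus strand, nearest start that of Zfp462, a zinc finger protein) and at chr2:70941506-70941605 (plus strand, nearest start that of Cybrd1, a ferric reductase). In both, the bases ga before the capitals complete a PU.1 site, so the 2 elements share letters there. This joined form was found in 107 of the IRF4-free regions, whereas 749 held an EICE and no PU.1 site.
Zfp462 region: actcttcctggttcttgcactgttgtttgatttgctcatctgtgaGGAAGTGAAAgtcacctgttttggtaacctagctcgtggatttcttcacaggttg
Cybrd1 region: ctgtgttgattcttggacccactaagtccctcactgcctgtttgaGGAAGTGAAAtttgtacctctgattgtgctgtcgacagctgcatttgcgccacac

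Among the PU.1 site examples, the Fam65b region had fold enrichments of 986 and 707 in the day 3 libraries and of 601 and 814 in the day 1 libraries. The Rfx7 region had 899 and 982 on day 3 and 732 and 851 on day 1. At the Slc43a2 region they were 867 and 759 on day 3 and 702 and 718 on day 1. All 3 stood in the top 1% of both PU.1 lists, and their nearest IRF4 peak lay 5.46, 27.5 and 36.2 kb away. The EICE examples were weaker in each library. For Zfp462 the values were 536 and 395 on day 3 and 295 and 349 on day 1. For Cybrd1 they were 449 and 502 on day 3 and 284 and 476 on day 1. No IRF4 peak lay within 91.1 kb of the Zfp462 region, but one lay 1.38 kb from the Cybrd1 region.

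The regions came from a total of 14132 PU.1 regions found on both days, called stable, of which 11680 were distal. Of the distal ones, 73.0% (72.1 to 73.8) were IRF4-free and 3159 had an IRF4 peak. Among 2452 regions at gene starts found on both days, 80.1% (78.5 to 81.6) had no IRF4 peak. The PU.1 libraries held 27321 to 38052 peaks and the IRF4 libraries 825 to 9326, and the lowest fold enrichment listed was 14.9 to 15.1 for PU.1 and 15 to 21.9 for IRF4. A region counts as IRF4-free when no peak above those levels was listed, so weaker IRF4 signal is not seen. The files hold no read counts, and the depth behind single peaks is unknown.

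The share without IRF4 was lower where PU.1 was stronger. The day 1 list was divided by enrichment into 4 strength classes of equal size. From the weakest class to the strongest, 90.2% of 1793, 87.4% of 2602, 79.6% of 3362 and 49.8% of 3923 distal regions found on both days were IRF4-free. The classes met at enrichments of 23.0, 36.8 and 71.9. Both the regions and these shares follow from the calls, so they are a description of the choice.

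That PU.1 peaks of all libraries meet at the IRF4-free regions is nearly fixed by the choice, since each PU.1 day list holds peaks of replicate 1 with a replicate 2 peak nearby. A peak lay less than 200 bp away in all 4 PU.1 libraries at 8517 of 8521 regions and in 3 libraries at the other 4. Median fold enrichments were 57.7 and 48.8 in day 3 replicates 1 and 2 and 39.5 and 52.0 in day 1 replicates 1 and 2. The middle 90% of regions ran from 20.7 to 259, 19.0 to 218, 17.2 to 171 and 19.9 to 232 in the same order. Enrichments of different libraries are not on a common scale, and ranks within each library are used to compare. The median IRF4-free region stood at percentiles 70.6 and 66.4 of the day 3 libraries and at percentiles 60.8 and 71.3 of the day 1 libraries.

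**Figure D1:**
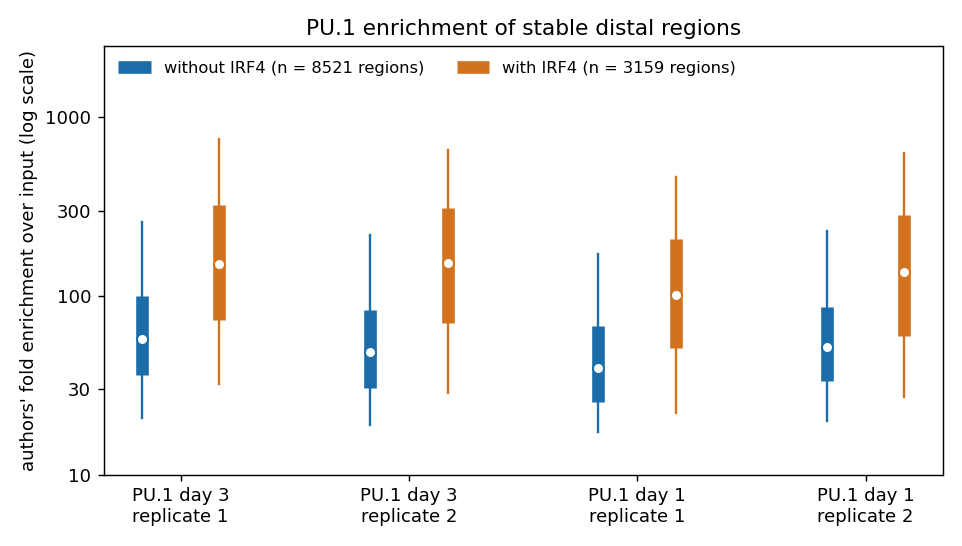
The authors' fold enrichment over input on a log scale in the 4 PU.1 libraries, for distal regions found on both days without IRF4 (left of each pair) and with IRF4; circles are medians, thick bars the middle 50% and thin lines the middle 90% of regions. Medians without IRF4 were 57.7, 48.8, 39.5 and 52.0, below the medians with IRF4 of 150, 152, 102 and 136, and the ranges overlap.

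Distal regions with IRF4 carried more PU.1 signal in each library, with medians of 150 and 152 on day 3 and 102 and 136 on day 1. Of the IRF4-free regions, 12.8% and 10.1% were in the top 10% of the day 3 libraries and 8.20% and 13.0% in that of the day 1 libraries. Of the regions with IRF4, 50.2% and 49.7% were in the top 10% on day 3 and 41.8% and 49.7% on day 1. Peaks were also narrower, with median widths of 329, 346, 321 and 376 bp at IRF4-free regions against 395, 427, 388 and 470 bp at regions with IRF4 in the same library order. PU.1 strength therefore moves with the presence of IRF4, and motif results below are also given within the strength classes.

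Enrichments of both days moved together across the regions. Across IRF4-free regions, log2 enrichment of the day 3 peak and of the day 1 row had a Pearson r of 0.81 and a Spearman rho of 0.765. Regions are not independent replicates, all values stem from 1 library per day, and r is a description. The positions lay a median of 20 bp apart, and 50.7% were within 20 bp. Above the median of both PU.1 lists stood 3819 IRF4-free regions (44.8%), and 390 (4.58%) stood in the top 10% of both.

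Distances to IRF4 were summarised for the IRF4-free regions only, so they have no reference class. The nearest IRF4 peak lay at a median of 15.1 kb. It was 200 bp or more but under 500 bp away at 239 regions (2.80%), from there to under 1 kb away at 335 (3.93%) and 1 to 10 kb away at 2862 (33.6%). The 3 regions just inside the IRF4 limit lay 200, 201 and 202 bp from a peak and had day 1 enrichments of 38.6, 24.2 and 68.4. Those just outside lay 199, 199 and 198 bp away, with 36.4, 30.9 and 29.0. At the limit to gene starts, the regions just inside (1003, 1006 and 1006 bp) had 49.4, 143 and 20.9, and those just outside (1000, 996 and 996 bp) had 82.1, 40.3 and 40.2. At the limit between days, the regions just inside (199, 197 and 196 bp) had 33.6, 26.3 and 94.7, and those just outside (207, 208 and 209 bp) had 31.6, 19.0 and 15.1. Values on both sides of each limit overlap.

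The 10 regions with the highest place in both lists all had enrichments above the 99th percentile on each day. Besides the Fam65b, Rfx7 and Slc43a2 regions they lay in introns of Prkce, a protein kinase C, of Ica1, of Nub1, a regulator of the ubiquitin-like protein NEDD8, and of Sfpq, a splicing factor, in an untranslated exon of Tmem38b, an intracellular cation channel, and in intergenic DNA nearest to Pcp4 and Gm6712. The region 73.7 kb from Pcp4 had enrichments of 832 and 412 on day 3 and 534 and 352 on day 1. At the Prkce region they were 1061 and 844 on day 3 and 505 and 885 on day 1. At the Sfpq region they were 804 and 842 on day 3 and 464 and 535 on day 1. Of the 10 regions, 7 held a PU.1 site, 0 an EICE and 0 an AP-1 site in the 200 bp around the peak position. Over all IRF4-free regions the shares were 31.6%, 11.1% and 5.67%, and over the PU.1 day 1 list 26.9%, 14.4% and 6.06%. With shares this low for the EICE and the AP-1 site, 0 of 10 regions does not set these regions apart.

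The sequence under the peaks was searched for short words on both strands of these 200 bp. A match is a description and does not show a bound site, and the PU.1 site and the EICE can overlap. The PU.1 site GAGGAAGT was found in 31.6% (30.6 to 32.6) of IRF4-free regions, against 26.9% of all regions of the PU.1 day 1 list and 1.42% of windows 2 kb to either side. The EICE was found in 11.1% (10.5 to 11.8), against 14.4% of the whole list and 1.92% of the flanks. The AP-1 site, TGACTCA or TGAGTCA, which Fos and Jun proteins bind, was found in 5.67% (5.20 to 6.18), against 6.06% of the whole list and 3.60% of the flanks. The reversed PU.1 site TGAAGGAG, a control with the same bases, was found in 1.34%, against 1.23% of the flanks.

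Regions with IRF4 differed from the IRF4-free regions mainly in which of the PU.1 words they held. The PU.1 site was found in 31.6% of IRF4-free regions (2689) and in 19.4% of regions with IRF4 (612), a difference of 12.2 percentage points (95% Newcombe interval 10.5 to 13.9, Fisher's exact test, adjusted p = 3.98e-39). The EICE was found in 11.1% of IRF4-free regions (946) and in 31.0% of regions with IRF4 (980), a difference of -19.9 points (-21.7 to -18.2, Fisher's exact test, adjusted p = 1.21e-131). The AP-1 site was found in 5.67% of IRF4-free regions and 8.77% of regions with IRF4 (-3.10 points, -4.24 to -2.03, Fisher's exact test, adjusted p = 3.42e-08). These tests take regions as units, two-sided, with p-values adjusted by Benjamini-Hochberg over 56 comparisons, and their intervals cover counting error only. Neighbouring regions can share sequence and all regions share the same libraries.

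The shares were also taken in each PU.1 library's own list, between distal peaks without and with IRF4. These lists include peaks not found on both days. For the EICE the shares were 9.25% and 26.2% in day 3 replicate 1, 11.3% and 28.3% in day 3 replicate 2, 11.2% and 29.0% in day 1 replicate 1 and 9.61% and 27.6% in day 1 replicate 2. For the PU.1 site they were 25.8% and 16.2%, 28.1% and 17.1%, 29.4% and 17.5%, and 27.8% and 17.7% in the same order. For the AP-1 site they were 5.52% and 10.8%, 4.94% and 9.82%, 5.39% and 9.67%, and 5.92% and 10.2%. Every library showed each difference in the same direction, with EICE differences between -18.0 and -16.9 points. The 4 lists hold many of the same regions and use the same reference sequence and IRF4 calls. Their agreement is therefore a description and not independent support.

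**Figure D2:**
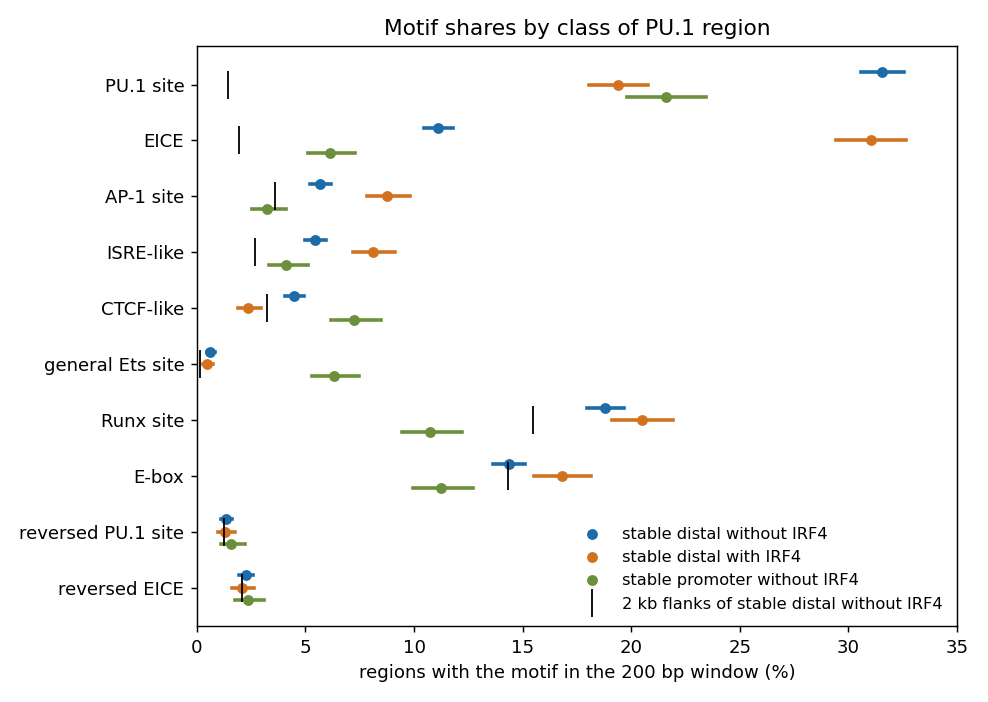
Percentage of regions with each motif in the 200 bp window, with 95% Wilson intervals, for distal regions without IRF4, distal regions with IRF4 and regions at gene starts without IRF4, all found on both days; the general Ets site is CCGGAAGT, the E-box CACCTG, and black ticks are windows 2 kb from the first class. The PU.1 site is at 31.6%, 19.4% and 21.6%, the EICE at 11.1%, 31.0% and 6.11%, and the reversed control words stay at the level of the flanks.

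Other words moved less. The ISRE-like word GAAANNGAAA, a pair of IRF contact words, was found in 5.43% of IRF4-free regions and 8.10% of regions with IRF4 (Fisher's exact test, adjusted p = 1.28e-06), against 5.72% of the whole list. The CTCF-like word CCNNNAGNNGGC, part of the site of an insulator-binding protein, was found in 4.48% of IRF4-free regions and 2.37% of regions with IRF4 (2.11 points, 1.38 to 2.77, Fisher's exact test, adjusted p = 3.11e-07), against 4.27% of the whole list. The E-box CACCTG, a word that E proteins bind, was at 14.4% in IRF4-free regions and 16.8% in regions with IRF4 (Fisher's exact test, adjusted p = 0.00356) with 14.3% in the whole list and 14.3% in the flanks. The E-box CAGCTG was at 13.4% in IRF4-free regions and 15.4% in regions with IRF4 (Fisher's exact test, adjusted p = 0.0249), with 9.55% in the flanks of the IRF4-free regions. The Runx word TGTGGT was at 18.8% and 20.5% (Fisher's exact test, adjusted p = 0.0870) with 18.5% in the whole list, and the octamer ATGCAAAT, bound by Oct factors, at 2.07% and 2.56% (adjusted p = 0.184) with 1.91% in the whole list. Neither passed, and the intervals of these differences ran from -3.34 to -0.0708 and from -1.17 to 0.0942 points. The reversed EICE was at 2.24% and 2.06% (difference 0.184 points, -0.445 to 0.738).

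Most IRF4-free regions held neither the PU.1 site nor the EICE in full. The PU.1 site alone was in 29.2%, the EICE alone in 8.79%, both in 2.31% and neither in 59.7%. In regions with IRF4 these shares were 14.6%, 26.3%, 4.75% and 54.4%. A GGAA core was nearly universal, at 99.2% of IRF4-free regions and 98.4% of regions with IRF4, and 90.1% and 87.0% held at least 2. The shorter word GAGGAA was in 61.4% of IRF4-free regions and 51.6% of regions with IRF4. No share of GGAA or GAGGAA in the flanks or the whole list was taken. How far these shares exceed those of other DNA is therefore not known. A PU.1 site running directly into an EICE, as in the Zfp462 and Cybrd1 regions, was in 107 IRF4-free regions (1.26%) and in 107 regions with IRF4 (3.39%).

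PU.1 enrichment varied with these words among the IRF4-free regions. Regions with a PU.1 site and no EICE had median enrichments of 66.7 and 55.5 in the day 3 libraries and 45.9 and 59.8 in the day 1 libraries. Those with an EICE and no PU.1 site had 62.3 and 53.2 on day 3 and 42.2 and 51.4 on day 1. Those with neither had 53.4 and 45.1 on day 3 and 36.7 and 48.5 on day 1. Regions with neither word had the lowest median in each of the 4 libraries, and the middle 50% of all these classes overlapped.

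Matches lay close to the summit. Of 2959 PU.1 site matches within 200 bp of IRF4-free peak positions, 58.2% had their centre within 25 bp, and of 1179 EICE matches 44.3% did. Of 241 matches of the reversed PU.1 site, 9.96% did. In regions with IRF4 the same shares were 65.4%, 62.2% and 13.0%. Within 50 bp the EICE shares were 68.8% in IRF4-free regions and 85.0% in regions with IRF4. Those of the PU.1 site were 85.9% and 84.9%. The EICE was thus closer to the summit in regions with IRF4 at both distances, and the PU.1 site within 25 bp only. Peak positions also varied more between libraries at IRF4-free regions, lying a median of 20 bp from the peak of day 3 replicate 1, against 14 bp at regions with IRF4, and 50.7% against 64.0% lay within 20 bp. The part of this in the motif distances was not tested. Nor was that of background EICE matches, found in 1.92% of the flanks of IRF4-free regions and 1.93% of those of regions with IRF4.

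**Figure D3:**
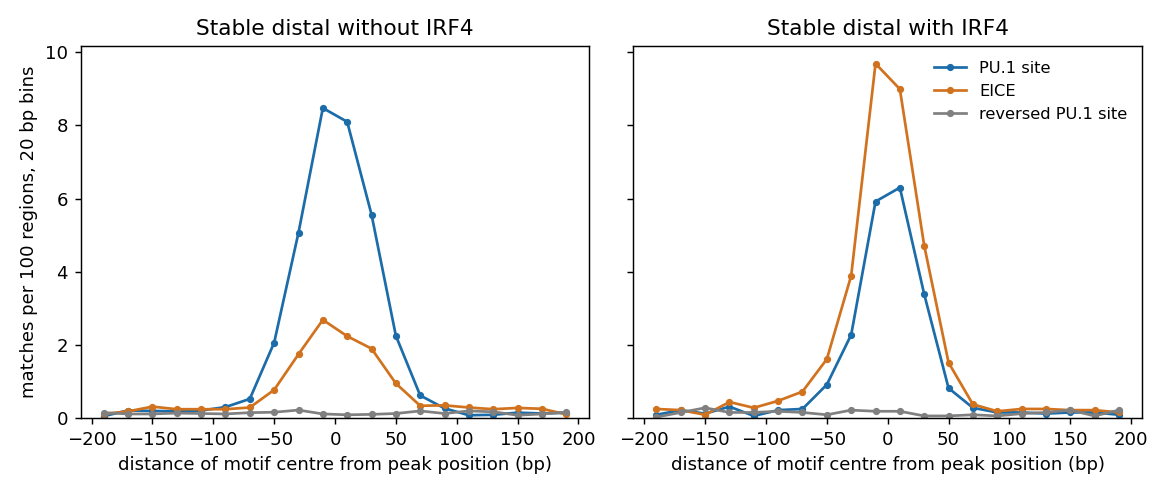
Motif matches per 100 regions in 20 bp bins against the distance of the motif centre from the PU.1 day 1 peak position, for distal regions without IRF4 (left) and with IRF4 (right). The PU.1 site leads on the left and the EICE on the right, and the reversed PU.1 site is flat in both panels.

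The EICE of the IRF4-free regions also differed in its spacer, the pair of bases between GGAA and GAAA. GT stood there in 38.8% of 975 matches in IRF4-free regions and in 37.5% of 1012 matches in regions with IRF4, a difference of 1.22 points (-3.05 to 5.48). CT stood there in 11.4% of matches (111) in IRF4-free regions and in 27.2% (275) in regions with IRF4, a difference of -15.8 points (-19.2 to -12.4). AT made up 14.5% and 10.7%, and GA 10.8% and 5.14%. The spacers were compared after their values were seen, and their intervals carry no p-value. The EICE was also in 1.92% of the flanks of IRF4-free regions and 1.93% of those of regions with IRF4. This background stands against 11.1% and 31.0% of the regions, and its part in the spacer shares was not tested. PU.1 sites were preceded by A in most cases, with A at 55.1%, 51.2% and 47.8% of bases 1, 2 and 3 before 2825 sites in IRF4-free regions. The base after the site was G in 66.4% of them, against 77.6% of 646 sites in regions with IRF4. A PU.1 site running into an EICE always has G there. This joined form was in 107 IRF4-free regions, beside 2825 PU.1 sites, and in 107 regions with IRF4, beside 646 sites. Its part in the difference was not tested.

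The number of IRF4 libraries with a peak set the IRF4-free regions at one end of a series. With peaks in 0, 1, 2, 3, 4, 5 and 6 IRF4 libraries (8521, 1426, 616, 346, 299, 275 and 197 distal regions), the EICE was found in 11.1%, 23.8%, 30.8%, 36.4%, 36.5%, 44.7% and 46.7%. The PU.1 site was found in 31.6%, 19.8%, 20.6%, 20.8%, 20.4%, 13.8% and 16.2%. The EICE share was higher with each further library, although neighbouring values from 2 libraries on overlap in their intervals, and the PU.1 site stood apart at 0 libraries. Median day 1 enrichment of PU.1 also climbed, through 39.5, 68.2, 101, 142, 171, 214 and 266. Taking each of the 6 IRF4 libraries in turn, distal regions with a peak in it held the EICE in 33.6% to 45.7%. These sets overlap, since a region can have peaks in several libraries. All 6 values lay above the 11.1% of IRF4-free regions.

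Within the strength classes the EICE and PU.1 site differences remained in direction and past the threshold. From the weakest class to the strongest, the EICE was in 9.34%, 9.76%, 12.3% and 12.4% of IRF4-free regions and in 19.9%, 17.1%, 23.9% and 36.8% of regions with IRF4. The PU.1 site was in 27.0%, 26.4%, 31.1% and 42.0% of IRF4-free regions and in 4.55%, 9.79%, 15% and 23.8% of regions with IRF4. The PU.1 site was more frequent in each stronger class among regions with IRF4, and among IRF4-free regions from class 2 on, while the EICE share of IRF4-free regions stayed between 9.34% and 12.4%. Strength was not equal inside the strongest class, where median day 1 enrichment was 108 in IRF4-free regions and 177 in regions with IRF4. In the weaker classes these medians were 19.0 and 19.5, 29.2 and 29.7, and 49.3 and 53.3. The classes were set after the data were seen.

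**Figure D4:**
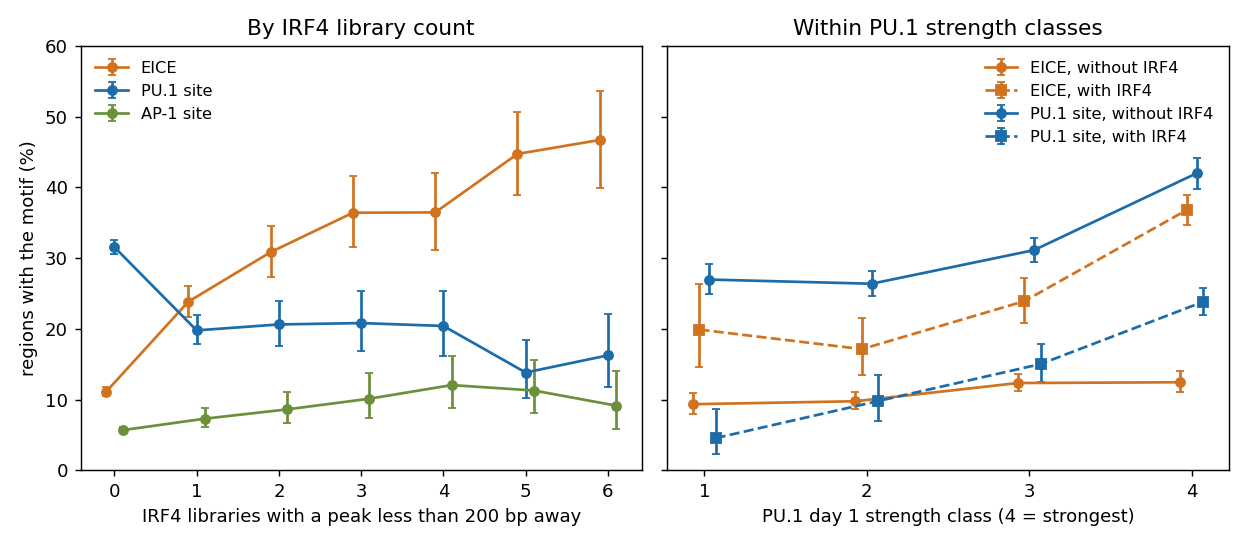
Left, percentage of distal regions found on both days with a motif against the number of IRF4 libraries with a peak less than 200 bp away; right, the same by strength class of PU.1 day 1 enrichment (4 is strongest), without and with IRF4. Bars are 95% Wilson intervals; the EICE runs between 11.1% at 0 libraries and 46.7% at 6, and in each class it is lower without IRF4.

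Set against regions at gene starts that also lacked IRF4, the distal regions held the PU.1 site more often and CCGGAAGT less often, and the PU.1 site was the more frequent of the 2 words in both classes. The PU.1 site was in 31.6% of distal and 21.6% of 1964 start-site regions (9.97 points, 7.85 to 12.0, Fisher's exact test, adjusted p = 6.19e-18). CCGGAAGT, a word that many Ets factors bind at CpG-rich promoters, was in 0.622% of distal and 6.31% of start-site regions (-5.69 points, -6.86 to -4.68, Fisher's exact test, adjusted p = 1.27e-49), against 1.24% of the whole list. Shares in distal and start-site regions were 11.1% and 6.11% for the EICE (Fisher's exact test, adjusted p = 3.86e-11), 5.67% and 3.21% for AP-1 (adjusted p = 1.67e-05) and 18.8% and 10.7% for the Runx word (adjusted p = 6.25e-18). Base composition moved with these values: the median GC content was 47.5% in distal and 55% in start-site regions, with a median of 2 and 8 CpG. Among regions of 45% to 55% GC the PU.1 site difference was 3.38 points (Fisher's exact test, adjusted p = 0.195). In the strongest class of PU.1 enrichment it was 1.06 points (Fisher's exact test, adjusted p = 0.888). That call was thus lost in this GC range, in the strongest class and also in class 3. GC was not matched inside the range, and only 794 start-site regions were left there and 303 in the strongest class. With the stronger 50% of each PU.1 list it held, at 6.18 points (2.55 to 9.67, Fisher's exact test, adjusted p = 0.00525). The CCGGAAGT difference passed under each of 22 alternatives but shrank to -2.57 points at 45% to 55% GC, -3.23 points with a distal limit of 5 kb and -1.75 points in the strongest class (Fisher's exact test, adjusted p = 0.0374).

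Regions in the list of 1 day alone came closer to the IRF4-free regions of both days. Alone means that no peak of the other day's list lay less than 200 bp away. That list needs a peak in both replicates, so a peak in 1 library of the other day is not excluded. Of distal regions without IRF4 in the day 1 list, 2223 had no peak of day 3 replicate 2 that near. In the day 3 list, 2673 had none of day 1 replicate 2. Distal regions without IRF4 in the day 3 list alone (4898) held the PU.1 site in 23.6%, against 31.6% of those found on both days (7.94 points, 6.38 to 9.47, Fisher's exact test, adjusted p = 8.14e-22), while their EICE share of 10.7% differed by 0.383 points (-0.724 to 1.46). Those in the day 1 list alone (6117) held the PU.1 site in 29.7% (1.85 points, 0.338 to 3.36, Fisher's exact test, adjusted p = 0.0432). They held the EICE in 11.2% (-0.113 points, -1.16 to 0.915). Each E-box passed against 1 of these classes only. CAGCTG was in 13.4% of the regions of both days and 11.2% of those of day 1 alone (2.26 points, 1.18 to 3.32, Fisher's exact test, adjusted p = 0.000167), against 9.55% of the flanks of the first. CACCTG was in 14.4% of the regions of both days and 17.01% of those of day 3 alone (-2.64 points, -3.94 to -1.37, Fisher's exact test, adjusted p = 0.000173). CAGCTG was in 13.5% of the regions of day 3 alone (Fisher's exact test, adjusted p = 0.909). CACCTG was in 13.6% of the regions of day 1 alone (Fisher's exact test, adjusted p = 0.318). The PU.1 site call against day 1 alone is fragile. The difference was 0.403 points without PU.1 day 3 replicate 2 and -3.88 points in strength class 2 (Fisher's exact test, adjusted p = 0.0187), and further settings in which it was lost stand among the processing results.

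By place, 52.4% (51.4 to 53.5) of IRF4-free regions lay in introns, 43.5% between genes, 2.09% in untranslated exons and 2.00% in coding exons. Distal regions with IRF4 had shares of 50.7%, 45.8%, 1.84% and 1.61% in these places. The median distance to a gene start was 19.2 kb without IRF4 and 19.1 kb with it. Chromosome 11 was densest in IRF4-free regions, with 4.97 per Mb, and the X chromosome sparsest, with 158 regions or 0.948 per Mb. The share of distal regions without IRF4 ran from 69.5% on chromosome 14 to 76.7% on chromosome 12 among autosomes and was 81.0% on X.

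Most IRF4-free regions stood alone. Joining neighbours up to 12500 bp apart left 5872 regions (68.9%) without a partner, and 271 runs of 3 or more held 931 (10.9%). The longest run had 7 regions over 45.7 kb at Smap2, an Arf GTPase-activating protein (chr4:120651020-120696690), with 1 distal IRF4 region among them. Runs of 6 lay at Tnfaip8, BC013712, Cdk6, a cell cycle kinase, Iqsec1 and Sema4b, a semaphorin, with 0, 0, 0, 1 and 2 IRF4 regions among them.

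A gene was counted as near an IRF4-free region when one lay in it or within 20 kb, which does not show that the region acts on the gene. Of 22238 protein-coding genes, 6173 (27.8%) had at least 1. The first places follow the length of the annotation. Gm20388, annotated over 4435 kb, had 32 regions and Fgfr2, annotated over 3009 kb, had 16. Asap1, an Arf GTPase-activating protein, had 15 IRF4-free regions and 1 distal region with IRF4. Arid1b, a subunit of the BAF chromatin remodeller, had 13 and 3. Bach2, a repressor of plasma cell differentiation, had 12 and 6. Ikzf1, a zinc finger regulator of lymphocyte development, had 12 and 3 and was the densest of these 10 genes at 9.38 per 100 kb. Eif4e3, a cap-binding translation factor, had 12 and 0, Tg, the thyroglobulin gene, 12 and 7, Xylt1, a xylosyltransferase, 12 and 2, and Foxp1, a forkhead factor, 11 and 2.

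Of the lists of genes that B cells use, 18 of 20 B cell receptor and identity genes had an IRF4-free region nearby, against 27.8% of all genes, and so did 14 of 17 antigen presentation genes, 13 of 20 germinal centre genes, 12 of 20 plasma cell genes, 13 of 20 NF-kB and activation genes and 11 of 16 Ets factors. Gene length moves with this count: the median length was 58.1 kb for B cell receptor and identity genes and 15.4 kb over all genes, but 10.3 kb for antigen presentation genes. Of the lists of other cells, 10 of 20 myeloid, 9 of 20 T and NK cell, 7 of 20 neuron and liver and 2 of 15 erythroid and megakaryocyte genes had one, and 8 of 20 interferon-stimulated genes did. No test was made, and neighbouring genes of a list can share a region. The share of distal regions near the genes that was IRF4-free was 65.9% for B cell receptor and identity genes, 70.7% for antigen presentation genes, 54.8% for NF-kB and activation genes and 73.4% over all genes.

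**Figure D5:**
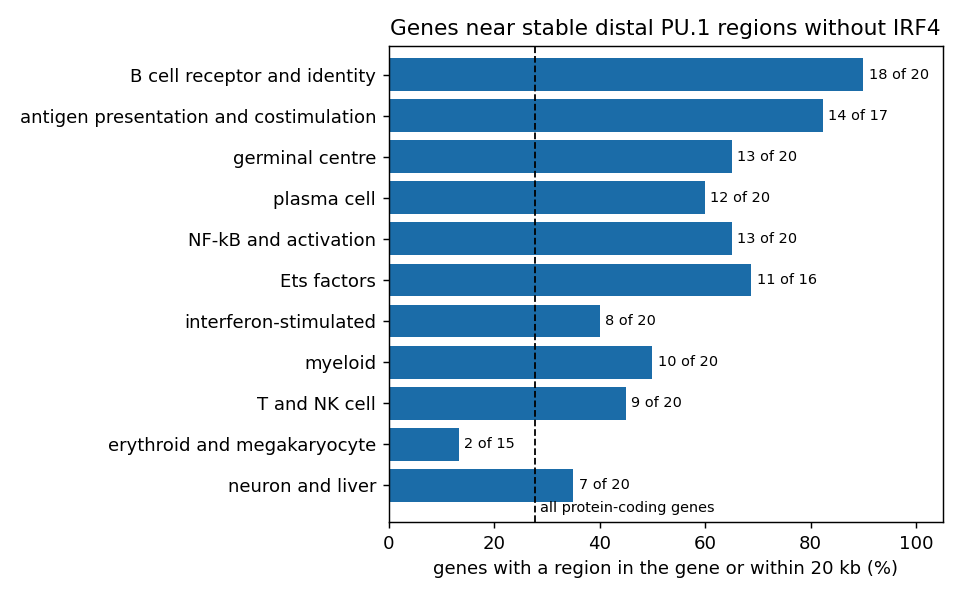
Percentage of the genes of each list with an IRF4-free distal PU.1 region in the gene or within 20 kb, with the counts beside the bars; the dashed line is the 27.8% of all protein-coding genes. B cell receptor and identity genes stand highest (18 of 20) and erythroid and megakaryocyte genes lowest (2 of 15).

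Among B cell receptor and identity genes, Ikzf1 had 12 IRF4-free regions, the highest-placed in an intron with enrichments of 173 and 140 on day 3 and 138 and 210 on day 1. Ebf1, a regulator of B lineage commitment, had 10 IRF4-free regions and 4 with IRF4, and Plcg2, the phospholipase that signals below the B cell receptor, had 6 and 1. The Plcg2 region held a PU.1 site and had 298 and 163 on day 3 and 115 and 102 on day 1. Cd79b, a signalling chain of the receptor, had 4 and 2. The leading regions of Ikzf1, Ebf1 and Plcg2 were intronic and that of Cd79b lay 19.3 kb upstream in an intron of Scn4a.

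Among antigen presentation genes, Ciita, the master activator of MHC class II genes, had 4 IRF4-free regions and 1 with IRF4. Its highest-placed region, in an intron, had 547 and 339 on day 3 and 271 and 520 on day 1. H2-Ab1, an MHC class II chain, had 4 and 0, and the region 5.49 kb upstream of it had 483 and 426 on day 3 and 364 and 612 on day 1. This region also counts for H2-Ob. It held neither a PU.1 site nor an EICE in the 200 bp window and lay 10.3 kb from the nearest IRF4 peak. Cd74, the MHC class II invariant chain, had 3 and 3.

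Of 20 germinal centre genes, 13 had an IRF4-free region, with a median of 1 region per gene over the list, and 12 of the 43 regions summed over genes were at Bach2. Irf8, a factor related to IRF4 that also pairs with PU.1, had 6 IRF4-free regions and 1 with IRF4, and its highest-placed one had 92.3 and 52.8 on day 3 and 56.1 and 60.6 on day 1. Bcl6, the repressor that drives the germinal centre programme, had 4 and 0, with an EICE in the one 4.53 kb upstream, which had 64.7 and 37.2 on day 3 and 45.1 and 43.6 on day 1. Cxcr5, the receptor that guides B cells into follicles, had 4 and 2. Of plasma cell genes, Irf4 itself had 4 and 0. The highest-placed, 37.1 kb beyond its start, held a PU.1 site and had 331 and 162 on day 3 and 230 and 188 on day 1. Prdm1, which encodes Blimp-1, had 3 and 2, Zbtb20 had 6 and 2, and Edem1, a factor of endoplasmic reticulum-associated degradation, had 2 and 0.

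Ets factor genes included Ets1 with 7 IRF4-free regions and 3 with IRF4, Etv6 with 6 and 4, Fli1 with 5 and 1 and Elf4 with 4 and 0. The leading Etv6 region had 351 and 341 on day 3 and 169 and 387 on day 1. Of NF-kB and activation genes, Junb had 3 and 1, Nfkb1 and Nfkbie had 2 and 1 each, and Bcl3, an atypical inhibitor of NF-kB, had 1 and 0 with 311 and 141 on day 3 and 171 and 179 on day 1. Of interferon-stimulated genes, Irf1 had 3 and 0, Psmb9 2 and 2, and Ifit2 and Ifit3 shared 2 regions.

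Among genes of other cells, the myeloid genes Csf1r and Emr1 had 2 IRF4-free regions and 1 with IRF4 each, and Csf2ra had 2 and 0. Of T and NK cell genes, Ctla4 had 2 and 1, Cd2 had 1 and 0, and Cd3d and Cd3e shared a region with 28.1 and 19.1 on day 3 and 19.3 and 37.8 on day 1. Of erythroid and megakaryocyte genes, Tfrc had 2 and 0 and Tal1 had 1 and 0. Alb, Apoa1 and Cyp7a1 had 1 and 0 each and Gad1 had 1 and 1, and the Apoa1 region lay in a coding exon with 96.0 and 42.9 on day 3 and 34.3 and 80.2 on day 1. Expression was not analysed here, so these counts do not show which genes were active, and the cell type was not checked against marker expression.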

How the data were processed

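Peak lists of 4 PU.1 and 6 IRF4 ChIP-seq libraries were used. Reads were mapped to mm9 and enrichment against input was calculated with QuEST, per the series' design text, and the submitters' processing notes name mm9. The sources used here do not give the QuEST version, the calling thresholds or the read aligner. Each deposited peak carries the authors' linear fold enrichment, a ratio against input DNA, which served here for description and for ranks inside 1 list. The input DNA was a pool of 2 B cell preparations and is not analysed here. Per library, peaks were called separately. Each PU.1 day list was found to copy lines of replicate 1 that have a peak no more than 200 bp away in replicate 2, so its enrichments come from 1 library, and repeated lines (5 for day 3, 7 for day 1) were counted once. No source used here says whether positions count from 0 or 1.

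Start sites, genes and sequence came from GENCODE M1 and the mm9 reference. Of 208 entries in 11 gene lists all matched, 3 through older symbols. Motif shares were compared by Fisher's exact tests adjusted by Benjamini-Hochberg over 14 motifs and 4 compared classes, at 0.05. Each alternative was adjusted on its own. Within strength classes the day 3-only class was left out of the comparisons and of the adjustment. Scripts used Python 3.11.15, scipy 1.17.1 and pysam 0.24.0 and were tested on simulated data. The naming rule took the 10 highest-placed regions, the first 3 with each PU.1 word, the 3 on each side of a limit, the 10 genes with most regions, the 4 leading genes per list and the 5 longest runs, and runs tied with them are named too. Of these, 1 region and 1 gene are not reported here. Alternatives changed the shared distance, the distal limit, the window, the strength, the GC range and the gene distance, and left out each library. Strength classes and start sites of further transcripts were added after the data were seen. The regions and lists were chosen with earlier results of these data known.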

Additional observations from a re-analysis of the deposited data

How the results depend on the processing

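The EICE, PU.1 site and AP-1 differences from distal regions with IRF4, and the CCGGAAGT difference from regions at gene starts, kept their direction and their call under each of 22 alternatives, and the PU.1 site difference from day 3-only regions under each of 18. Leaving out 1 library at a time gave -20.7 to -19.2, 11.1 to 12.6, -3.93 to -2.89, -7.30 to -5.12 and 7.15 to 8.69 percentage points. The CCGGAAGT difference shrank to -2.57 points at 45% to 55% GC, -3.23 with a distal limit of 5 kb, -3.43 in a 100 bp window and -1.75 in class 4. The PU.1 site difference from start-site regions was 9.38 to 11.7 points without single libraries. It no longer passed at 45% to 55% GC (3.38), in strength class 3 (5.32) or in class 4 (1.06), and the cause was not tested. The PU.1 site difference from day 1-only regions was 0.403 to 4.68 points without single libraries, and it did not pass without IRF4 day 3 replicates 1 or 3, IRF4 day 1 replicates 2 or 3, or PU.1 day 3 replicate 2. Nor did it pass with a distal limit of 5 kb (1.85), at 45% to 55% GC (0.552) or in strength classes 1 (0.906) and 4 (2.27), and it turned to -3.88 in class 2 and -1.26 in class 3; the cause was not tested. With the stronger 50% of each PU.1 list there were 3825 IRF4-free regions, or 60.6% of stable distal regions, and without single libraries 8526 to 12415, or 73.0% to 77.5%. With an IRF4 library left out fewer peaks can meet a region, and with a PU.1 library left out all peaks of the day's other library were used. Shared distances of 100 and 500 bp gave 74.8% and 70.8%. With start sites of every transcript of a protein-coding gene there were 8324. Counts within 5 kb or 50 kb of genes follow that distance, with 3990 and 9261 genes overall. Enrichments were not rerun under the alternatives, and the other motifs entered only the adjustment of p-values there. No paired analysis was possible because the results are classes of regions built from lists of several libraries, with no test across libraries; differences inside each of 4 PU.1 libraries stand with the motif results. Depth is unknown, so IRF4 signal below the lists was not detectable.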
